A study of Mus musculus with 6 samples.

Results

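Immediate early genes and the regulators that damp them were followed in mouse kidney proximal tubules with and without Clcn5. The 44 genes were chosen by name, with earlier results of these data known. They are 44 of the 18193 genes that the array measures through probe sets with a single gene symbol. They had 87 probe sets, of which 63 were bright enough to test, and 38 genes had at least 1 such probe set. Each gene was read from its probe set with the highest mean log2 signal over all 6 arrays. Clcn5 encodes ClC-5, an endosomal chloride and proton exchanger of proximal tubule cells whose loss in people causes Dent disease. The study compared 3 Clcn5 knockout arrays with 3 wild-type arrays, each made from pooled tubule pieces. Between 80 and 100 pieces of 2 mm were dissected per kidney, after perfusion of the left kidney of halothane-anaesthetised mice with cold salt solution. A pool held RNA of 3 to 4 mice according to the series text and of 7 mice according to the array records. Both groups were handled the same way in these descriptions, and the knockout allele, strain, age and sex are not given in the sources used here. Nothing says that the pools of a group were independent beyond their number, so the p-values measure the spread between these arrays.

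Immediate early genes are transcribed within minutes of a growth factor, hormone or stress signal, without new protein synthesis, because the factors on their promoters are already in place and wait for phosphorylation. Many encode transcription factors, such as the Fos and Jun subunits of AP-1, Egr1 and Nr4a1, which then switch on later genes. Others shut the response down: Zfp36 destroys messenger RNAs with AU-rich elements, dual-specificity phosphatases remove phosphate from MAP kinases, Nfkbia holds NF-kappaB in the cytoplasm and Socs3 blocks cytokine receptors.

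The labels and the tissue were first checked. Clcn5 itself read 352, 322 and 269 on the knockout arrays and 1013, 709 and 1029 on the wild-type arrays, and its other 3 probe sets were also lower, the most changed of them at -2.87 on the log2 scale. Which part of Clcn5 is deleted is not given, so a probe set may lie outside it. The 12 proximal tubule markers, among them the endocytic receptors Lrp2 and Cubn, summed to 47199 to 50754 on knockout arrays and 44796 to 51597 on wild-type arrays, with 0 called higher and 1, the amino acid transporter Slc6a19, lower. Markers of later segments were bright too. On wild-type arrays Umod of the thick ascending limb averaged 3875 and Calb1 of the distal convoluted tubule 3917, beside 4176 for Lrp2. RNA of later segments was thus present in the pieces. Median signals of the arrays lay between 40.9 and 48.8, the highest being knockout array 3. Knockout arrays 1 and 2 and wild-type arrays 1 and 3 were washed and stained on 1 fluidics station, and knockout array 3 and wild-type array 2 on another. Knockout array 3 also had another lot of solution.

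Of the 38 tested genes, 16 (42.1%) were higher in knockout tubules and 0 were lower at an adjusted p under 0.05 in limma's test, adjusted over 11620 genes. The background was 377 higher genes, 3.24% of all tested, and 376 lower genes, 3.24% as well. The early and feedback genes were chosen with earlier results of these data known, so the set as a whole was not tested. At an unadjusted p under 0.05, 23 of the 38 were higher and 1, Dusp4, was lower. Among all 11620 tested genes, 1194 were higher and 1055 lower at that cut. On 22 of the genes every knockout array lay above every wild-type array, against 13.6% of all tested genes, and on 2 every knockout array lay below, against 11.6%. The median log2 change was 0.28, with a range from -0.38 to 1.45, while the median of all tested genes was 0.01. A positive change was found for 32 of the 38 (84.2%), against 51.7% of all tested genes. Leaving out knockout array 2 left 10 of the 38 called, and the other arrays left 12 to 14.

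**Figure D1:**
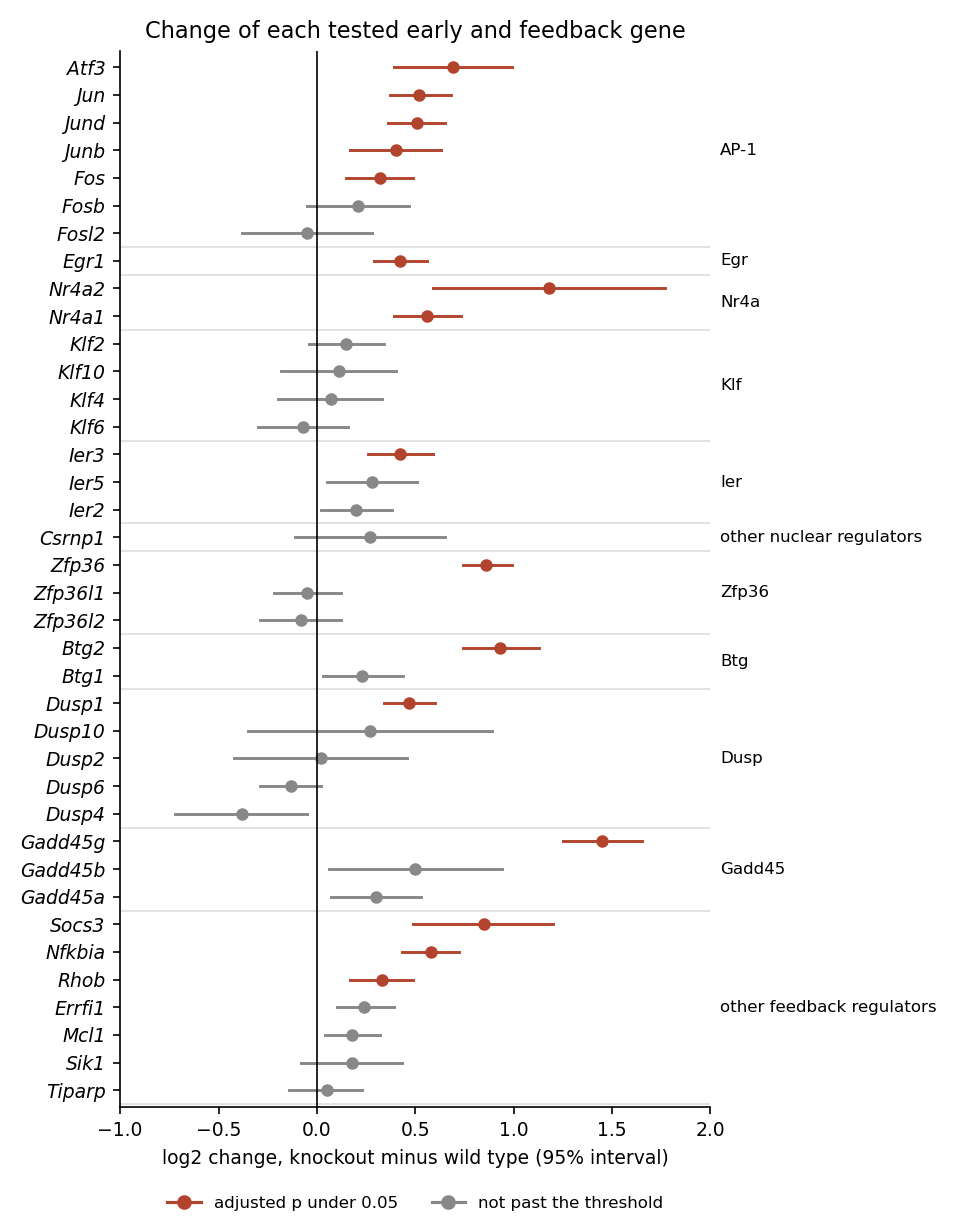
Log2 change (knockout minus wild type, x axis) of the 38 tested genes by group, with 95% confidence intervals as bars, red for genes past an adjusted p of 0.05 and grey for the others. Most points lie right of 0, up to 1.45 for Gadd45g, and the lowest is Dusp4 at -0.38.

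The knockout arrays were shifted by similar amounts. Relative to the wild-type mean of each gene, the median deviation of the 38 genes was 0.26, 0.31 and 0.26 log2 units on knockout arrays 1 to 3, and -0.01, 0.02 and 0.01 on the wild-type arrays. The wild-type deviations of each gene cancel by construction, so the small wild-type medians are no separate result. Among the 16 called genes the knockout arrays stood at 0.53, 0.56 and 0.52. These 16 were called on the same arrays, so their height was selected for. The median change of the 38 genes was 0.30 between arrays of the first station and 0.25 on the second. Arrays of a group varied little: the median within-group SD of the 38 genes was 0.102 log2 units, against 0.135 for all tested genes. The median SE of a log2 change was likewise smaller, 0.09 against 0.12. Brightness was not matched in these comparisons.

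**Figure D2:**
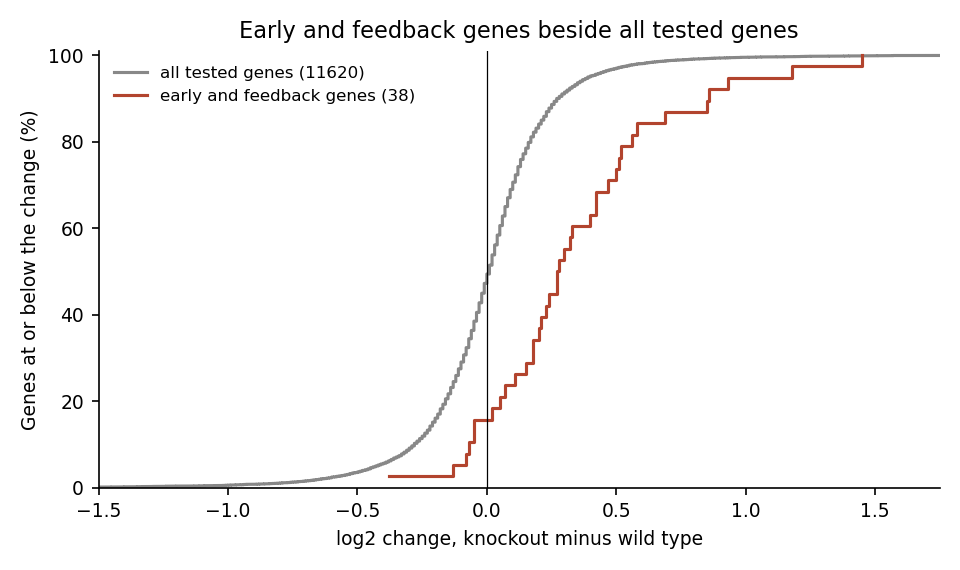
Cumulative share of genes (y axis, percent) at or below each log2 change (x axis, knockout minus wild type) for all 11620 tested genes and for the 38 tested early and feedback genes. The curve of the 38 lies to the right, crossing its middle near 0.28 where that of all genes crosses near 0.01.

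To show the regulatory sequence of genes that moved together, the 250 bases before the transcription start are given for 7 of the 16 called genes, taken across the roles. The sequences are RefSeq's on GRCm38.p6, written from 5′ to 3′ on the gene's strand, with Fos at chr12:85473640-85473889 on the plus strand, Nr4a1 at chr15:101266596-101266845 on the plus strand, Zfp36 at chr7:28379229-28379478 on the minus strand, Btg2 at chr1:134079156-134079405 on the minus strand, Dusp1 at chr17:26508473-26508722 on the minus strand, Gadd45g at chr13:51846425-51846674 on the plus strand and Nfkbia at chr12:55492648-55492897 on the minus strand. Capitals mark matches on either strand to 1 of 7 motifs: the serum response element, TGACG, the full cyclic AMP element TGACGTCA that contains it, the AP-1 site TGANTCA, the NF-kappaB site (GGG, any pair of bases, then TTTCC), the Egr site GCGNGGGCG and TATAAA.
Fos: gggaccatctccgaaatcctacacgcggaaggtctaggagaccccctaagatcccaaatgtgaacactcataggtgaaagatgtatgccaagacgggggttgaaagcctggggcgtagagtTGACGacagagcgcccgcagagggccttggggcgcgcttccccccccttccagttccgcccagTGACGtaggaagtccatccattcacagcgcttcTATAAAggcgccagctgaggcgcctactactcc
Nr4a1: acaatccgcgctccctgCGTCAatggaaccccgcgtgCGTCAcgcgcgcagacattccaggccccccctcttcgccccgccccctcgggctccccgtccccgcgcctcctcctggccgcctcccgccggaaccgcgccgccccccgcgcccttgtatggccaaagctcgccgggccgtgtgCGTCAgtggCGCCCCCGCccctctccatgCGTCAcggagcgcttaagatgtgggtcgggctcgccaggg
Zfp36: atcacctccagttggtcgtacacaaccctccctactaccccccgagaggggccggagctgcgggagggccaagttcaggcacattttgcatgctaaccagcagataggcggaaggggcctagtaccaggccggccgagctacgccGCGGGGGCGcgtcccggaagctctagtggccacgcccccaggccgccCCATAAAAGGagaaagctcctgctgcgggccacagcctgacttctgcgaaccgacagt
Btg2: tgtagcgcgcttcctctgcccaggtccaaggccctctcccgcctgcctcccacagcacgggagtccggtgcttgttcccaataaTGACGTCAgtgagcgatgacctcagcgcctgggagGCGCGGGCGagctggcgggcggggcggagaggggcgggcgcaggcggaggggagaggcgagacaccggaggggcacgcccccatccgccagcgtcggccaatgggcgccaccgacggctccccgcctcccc
Dusp1: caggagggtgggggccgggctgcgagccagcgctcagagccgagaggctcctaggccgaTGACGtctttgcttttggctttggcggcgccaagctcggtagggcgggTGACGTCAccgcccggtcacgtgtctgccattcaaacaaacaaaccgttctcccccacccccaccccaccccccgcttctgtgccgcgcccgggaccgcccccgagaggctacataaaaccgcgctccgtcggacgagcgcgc
Gadd45g: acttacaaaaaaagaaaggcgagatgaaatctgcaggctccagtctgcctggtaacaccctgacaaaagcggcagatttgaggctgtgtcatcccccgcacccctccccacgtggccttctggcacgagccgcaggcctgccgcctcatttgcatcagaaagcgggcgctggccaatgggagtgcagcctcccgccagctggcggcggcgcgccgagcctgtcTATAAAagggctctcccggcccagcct
Nfkbia: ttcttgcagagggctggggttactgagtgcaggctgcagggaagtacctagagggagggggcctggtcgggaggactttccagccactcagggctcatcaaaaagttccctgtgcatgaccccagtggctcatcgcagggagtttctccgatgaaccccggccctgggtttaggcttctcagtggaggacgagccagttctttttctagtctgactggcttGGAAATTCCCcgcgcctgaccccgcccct

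These promoters differed in the motifs they hold. Fos has TGACG at bases -129 to -125 and -66 to -62 from the start and TATAAA at -33 to -28. Nr4a1 has TGACG on the reverse strand 4 times, the nearest at -40 to -36, and an Egr site at -60 to -52. The serum response element appears in Zfp36 at -58 to -49, and an Egr site lies at -105 to -97. Btg2 and Dusp1 each carry TGACGTCA, at -166 to -159 and -143 to -136. In Nfkbia, the gene of the NF-kappaB inhibitor, the NF-kappaB letters stand at -29 to -20, and Gadd45g shows only TATAAA, at -27 to -22. A match describes letters and is no evidence of binding. Bases farther upstream than those shown were not searched, so a motif without a match may still lie there.

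Over the whole set, 35 of the 44 genes had a RefSeq window of 300 bases, which adds 50 bases after the start. TGACG was present in 7 of the 15 called genes with a window and in 8 of the 17 tested genes that were not called, against 34.7% of tested genes and 20.8% of all windows. The Egr site was present in 5 of 15 and 6 of 17, against 12.1% of tested genes and 5.55% of all windows. TATAAA was found in 5 of 15 and 4 of 17, against 9.54% and 13.6%. The full TGACGTCA, at 3.35% of tested genes and 1.79% of windows, was in 2 and 1. The serum response element, at 1.54% and 1.63%, was in 1 and 0, and the NF-kappaB site, at 1.87% and 1.63%, was in 1 and 1. TGANTCA, at 6.38% and 7.81%, was in 0 and 2. The called and uncalled genes thus held TGACG and the Egr site at similar counts. All these counts cover the windows only, and motifs farther from the start were not searched for.

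Among the transcription factors, 5 of the 7 tested AP-1 genes were higher in knockout tubules, with a median log2 change of 0.40 in the group. AP-1 is a dimer of a Jun protein with a Fos or Atf protein. Jun, its core partner, read 753, 819 and 853 on the knockout arrays and 544, 550 and 591 on the wild-type arrays. The groups stood clear of each other at 808 ± 50.9 and 562 ± 25.3 (mean ± SD, n = 3 each), 1.44-fold as a ratio of geometric means, a log2 change of 0.52 (SE 0.07, adjusted p = 0.00108 in limma). The second bright probe set of Jun gave 0.55. Jund, the most steadily expressed Jun protein, read 1624, 1635 and 1503 in knockout against 1078, 1095 and 1176 in wild type. Again no knockout array overlapped a wild-type array, and the log2 change was 0.51 (SE 0.06, adjusted p = 0.000736). Atf3, a stress-induced factor that represses many AP-1 and CREB targets, read 200, 187 and 161 against 114, 97.7 and 128. This was the widest rise in the group, 1.61-fold, a log2 change of 0.69 (SE 0.14, adjusted p = 0.011).

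Fos and Junb were also higher, but many alternatives ended their calls. Fos, the classical serum-response gene, read 2062, 2124 and 1947 in knockout and 1572, 1823 and 1538 in wild type, 2045 ± 89.9 against 1644 ± 155 (SD, n = 3). The lowest knockout array stood above the highest wild-type array, and the log2 change was 0.32 (SE 0.08, adjusted p = 0.0331). The change was 0.43 on the first station and 0.10 between the single arrays of the second. Without knockout array 1 or 2 or wild-type array 1 or 3 the adjusted p of Fos was 0.08, 0.116, 0.153 and 0.121. It was 0.268 with the arrays centred on the median, 0.14 without the intensity trend and 0.0601 without the filter on dim probe sets. Junb, a Jun protein that restrains Jun, read 403, 396 and 339 in knockout and 252, 297 and 314 in wild type. Here too the arrays did not overlap, with a log2 change of 0.40 (SE 0.10, adjusted p = 0.0445). Its adjusted p lay between 0.0517 and 0.164 without any 1 array other than knockout array 3, and blocking on the station gave 0.0582, while the arrays of the first station by themselves gave 0.0718. Median centring gave 0.185, no intensity trend 0.134 and no filter 0.0739.

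The remaining AP-1 genes did not pass. Fosb, a partner induced like Fos, read 180, 200 and 192 against 161, 189 and 147, overlapping, at 0.21 (adjusted p = 0.364). For Fosl2, the Fra-2 subunit, the brighter probe set read 83.6, 78.7 and 83.8 against 87.4, 91.5 and 76.1, a log2 difference of -0.05 (adjusted p = 0.909). Its other probe set read 90.4, 90.8 and 105 against 64.6, 69.0 and 67.7, at 0.50 with a 95% interval from 0.19 to 0.82, so the 2 probe sets of Fosl2 disagree. Fosl1, the Fra-1 subunit, was too dim to test, with no signal above 55.3.

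**Figure D3:**
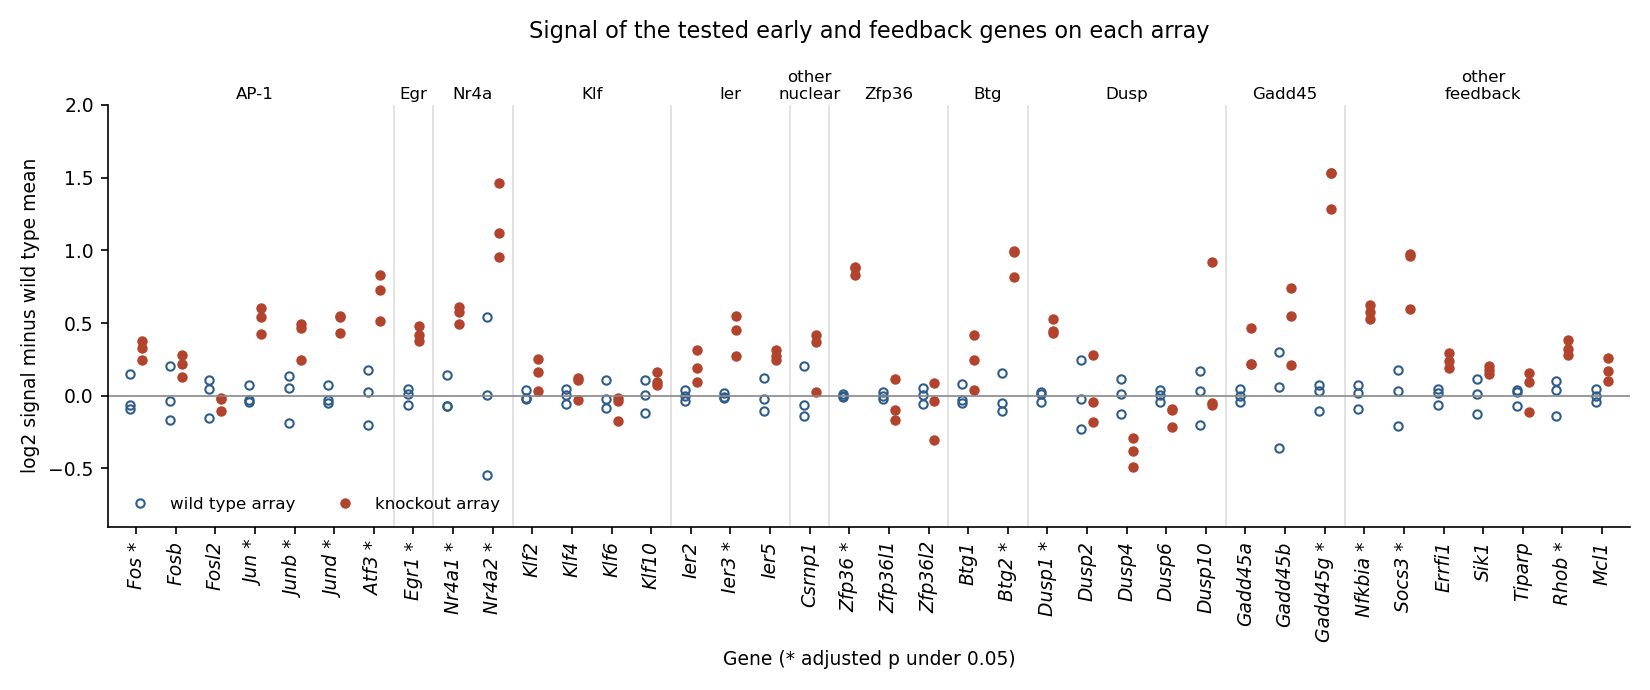
Log2 signal of each of the 38 tested genes (x axis, by group, asterisks for called genes) on each array, minus the gene's wild-type mean (y axis). Filled points are the 3 knockout arrays and open points the 3 wild-type arrays. The knockout arrays are shifted together, with medians of 0.26, 0.31 and 0.26. The wild-type arrays lie around 0 because the mean taken off is their own.

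Of the Egr zinc finger factors, which bind GC-rich sites and are induced with Fos, only Egr1 was bright enough to test. It read 1426, 1532 and 1468 in knockout tubules and 1110, 1137 and 1051 in wild type. The means of 1475 ± 53.0 and 1099 ± 44.1 (SD, n = 3) did not overlap and gave a log2 change of 0.42 (SE 0.06, adjusted p = 0.00173), with 0.45 and 0.37 on the 2 stations. With the arrays centred on the median the adjusted p of Egr1 was 0.074. Egr2 stayed at or below 36.2 and Egr3 at or below 69.0 on every array and probe set.

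Both Nr4a orphan nuclear receptors rose. Nr4a1, also called Nur77, read 628, 612 and 578 in knockout and 391, 454 and 391 in wild type. All knockout arrays were well clear of the wild-type arrays, 1.47-fold higher, at 0.56 on the log2 scale (SE 0.08, adjusted p = 0.00142). Nr4a2, or Nurr1, was close to the lower limit of testing at 89.5, 100 and 128 against 31.7, 67.2 and 46.2. It was 2.27-fold higher, a log2 change of 1.18 with an interval from 0.59 to 1.77 (adjusted p = 0.0232). Nr4a2 had 5 dimmer probe sets that spread from -0.62 to 0.44, all with overlapping groups. Its adjusted p was 0.0683, 0.0876, 0.0634 and 0.0719 without knockout array 2, knockout array 3, wild-type array 1 and wild-type array 3, and its log2 change was 0.67 with 50 added to every signal. Without the filter the adjusted p of Nr4a2 was 0.0512, and without the intensity trend 0.0759.

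No Klf gene passed: limma called 0 of the 4, and 0 had an unadjusted p under 0.05. These Krüppel-like factors include Klf2 and Klf4, which respond to flow in endothelium, Klf6, an injury-induced factor, and Klf10, a TGF-beta early gene. Their median log2 change was 0.09, and it was 0.15 on the first station and -0.04 on the second. Klf2 read 266, 311 and 291 against 258, 267 and 256, at 0.15 (interval -0.04 to 0.34). Klf4 lay at 0.07 (-0.20 to 0.33), Klf10 at 0.11 (-0.18 to 0.40) and Klf6 at -0.07 (-0.30 to 0.16). A log2 change above 0.40 thus lies outside all 4 intervals. The other bright probe sets of Klf6 stood at -0.36, -0.34 and -0.02. Whether the Klf group differs from AP-1 was not tested.

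Of the short-lived Ier proteins, Ier3 passed and the other 2 pointed the same way. Ier3, a survival factor induced through NF-kappaB and ERK, read 950, 1015 and 839 in knockout and 689, 692 and 705 in wild type. Its wild-type arrays were nearly level at 695 ± 8.26 and its knockout arrays more spread at 935 ± 88.9 (SD, n = 3), a log2 change of 0.42 (SE 0.08, adjusted p = 0.00626). With the arrays centred on the median its adjusted p was 0.127, and without the intensity trend 0.0575. Ier2 and Ier5, nuclear proteins of the same family, did not overlap between groups but missed the threshold at 0.20 (adjusted p = 0.208) and 0.28 (adjusted p = 0.165). Csrnp1, an axin-induced nuclear factor, overlapped at 0.27 (adjusted p = 0.445). Myc, with no signal above 35.2, and Maff, with none above 6.01, were too dim to test.

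Among genes that act on messenger RNA, Zfp36 and Btg2 rose while the relatives of Zfp36 did not pass. Zfp36, or tristetraprolin, read 1224, 1264 and 1272 in knockout and 684, 694 and 688 in wild type. Replicates were tight at 1253 ± 25.6 and 689 ± 5.17 (SD, n = 3), 1.82-fold apart, a log2 change of 0.86 (SE 0.06, adjusted p = 8.75e-06). Zfp36l1 read 1047, 1275 and 1102 against 1195, 1178 and 1158, and Zfp36l2 694, 837 and 912 against 860, 826 and 889. In both paralogs, which bind the same AU-rich elements, the groups overlapped, at -0.05 (interval -0.22 to 0.12) and -0.08 (-0.29 to 0.12). Neither interval reaches that of Zfp36, 0.74 to 0.99, although the difference between paralogs was not tested. A dimmer probe set of Zfp36l2 gave -0.46.

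Btg2, an antiproliferative protein that recruits the deadenylase complex, read 525, 592 and 589 in knockout and 288, 331 and 276 in wild type. The knockout arrays lay far above at 569 ± 38.0 against 298 ± 29.0 (SD, n = 3), 1.91-fold, at 0.93 on the log2 scale (SE 0.09, adjusted p = 0.000103). A second probe set differed less, at 464, 453 and 422 against 323, 434 and 304, a log2 change of 0.35. Without knockout array 2 or 3 that second probe set was the brighter and stood for Btg2, at 0.34 (adjusted p = 0.251) and 0.39 (adjusted p = 0.16). Btg1, its paralog, overlapped at 887, 996 and 766 against 731, 720 and 790, a log2 change of 0.23 (adjusted p = 0.186). Without knockout array 3 the adjusted p of Btg1 was 0.0359, at 0.33.

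**Figure D4:**
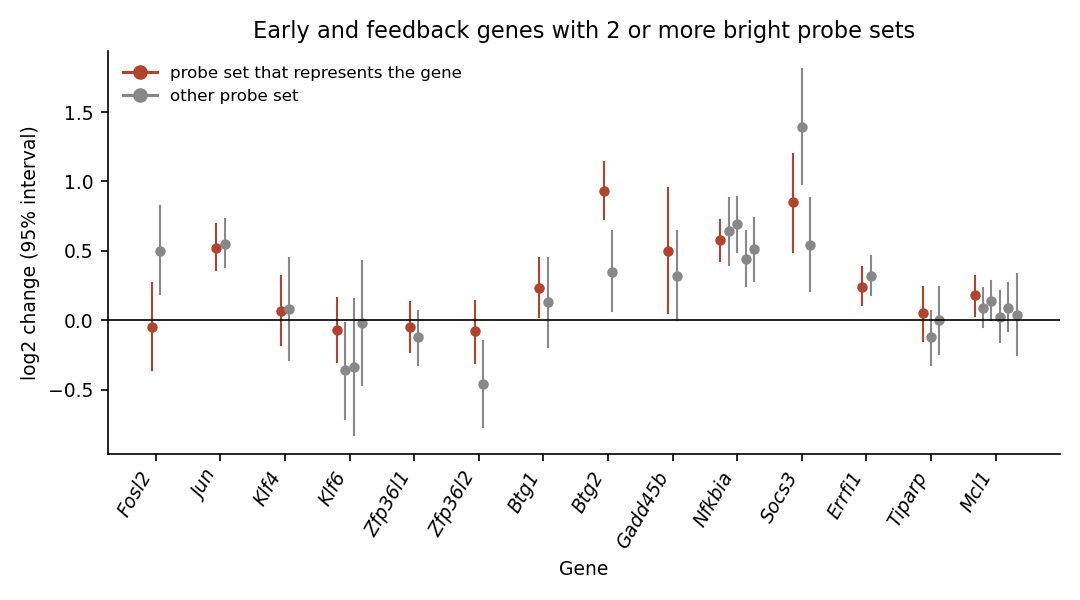
Log2 change (knockout minus wild type) (y axis) with 95% intervals for every bright probe set of the 14 genes with more than 1, in red where the probe set stands for the gene. The probe sets of a gene fall on the same side of 0 in 12 of the 14 genes, the exceptions being Fosl2 and Tiparp.

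Of the 5 tested dual-specificity phosphatases 1 was called higher and 0 lower. Dusp1, the nuclear phosphatase of p38 and JNK, rose, reading 1590, 1607 and 1699 in knockout and 1188, 1147 and 1204 in wild type. Means of 1632 ± 58.7 and 1180 ± 29.0 (SD, n = 3) gave 1.38-fold and a log2 change of 0.47 (SE 0.06, adjusted p = 0.000728). Dusp4 and Dusp6, which act chiefly on ERK, were the 2 of the 38 genes with every knockout array below every wild-type array, a pattern that 11.6% of all tested genes show. Dusp4 read 78.9, 68.7 and 74.1 against 97.1, 88.2 and 104, at -0.38 (interval -0.72 to -0.05, adjusted p = 0.185). Dusp6, the cytoplasmic ERK phosphatase, read 393, 428 and 425 against 442, 469 and 456, at -0.13 (interval -0.29 to 0.02, adjusted p = 0.333). Neither passed the threshold. Dusp2, another nuclear phosphatase, stood at 0.02 (-0.42 to 0.46), and Dusp10, which acts on JNK and p38, read 47.9, 47.4 and 94.0 against 55.7, 50.7 and 43.2, where knockout array 3 alone was high. The median of the 5 was 0.02, and it lay between -0.11 without knockout array 3 and 0.14 without wild-type array 2. Dusp5 was too dim, with no signal above 10.6.

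Gadd45g showed the largest change of the 38 genes. The Gadd45 proteins bind and activate the kinase Map3k4 upstream of p38 and JNK and slow the cell cycle. Gadd45g read 610, 514 and 610 in knockout and 222, 197 and 215 in wild type. No array came near the other group, with means of 578 ± 55.3 and 211 ± 13.1 (SD, n = 3), 2.73-fold, a log2 change of 1.45 (interval 1.25 to 1.65, adjusted p = 6.98e-06). Gadd45a, a p53 target, read 195, 232 and 195 against 163, 173 and 168, without overlap, at 0.30 (interval 0.07 to 0.53, adjusted p = 0.135). Gadd45b read 93.6, 135 and 118 against 99.4, 63.0 and 84.1, overlapping, at 0.50 (interval 0.06 to 0.94, adjusted p = 0.193). A second probe set of Gadd45b, almost as bright, read 117, 103 and 96.2 against 81.2, 77.8 and 94.6, without overlap, at 0.32. Limma called 1 of the 3 genes, and the group median of 0.50 is the value of Gadd45b. That median was 0.29 without wild-type array 1 and 0.33 without knockout array 2, where the second probe set stood for Gadd45b, 0.32 without wild-type array 2, and 0.87 with a mean signal of at least 100, which leaves Gadd45b out.

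Among the other feedback regulators, Nfkbia, Socs3 and Rhob were higher, 3 of 7, with a group median of 0.24. Nfkbia read 2357, 2443 and 2523 in knockout and 1661, 1535 and 1721 in wild type. All 5 of its bright probe sets were higher without overlap, between 0.44 and 0.69, and the brightest gave 0.58 (SE 0.07, adjusted p = 0.000348), 1.49-fold. Socs3 read 156, 154 and 120 against 68.5, 80.7 and 89.4, 1.80-fold, at 0.85 (SE 0.16, adjusted p = 0.00841). Its other 2 bright probe sets gave 1.39 and 0.54, and the latter stood for Socs3 without knockout array 2, at 0.64 (adjusted p = 0.0557). The former stood for Socs3 without wild-type array 1, 2 or 3, at 1.32, 1.32 and 1.54, and on the first station, at 1.49. Rhob, an endosomal small GTPase induced by growth factors and DNA damage, read 964, 994 and 1035 against 850, 720 and 817. Its arrays did not overlap, and the log2 change was 0.33 (SE 0.07, adjusted p = 0.0229). Without knockout array 2 or 3 or wild-type array 2 or 3 the adjusted p of Rhob was 0.0674, 0.0693, 0.0851 and 0.057. It was 0.213 with the arrays centred on the median, 0.115 without the intensity trend and 0.142, at a log2 change of 0.23, on the first station.

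Errfi1, the inhibitor of the EGF receptor also called Mig6, came nearest to the threshold without passing. It read 4492, 4824 and 4633 in knockout and 3984, 3754 and 4052 in wild type, clear of overlap, at 0.24 (interval 0.10 to 0.39, adjusted p = 0.0587). The adjusted p was 0.0129 with quantile normalization, 0.0182 for the mean of its probe sets and 0.046 with array weights. Its second probe set gave 0.32, with an adjusted p of 0.0329 in the fit over probe sets. Mcl1, a short-lived survival protein, had no overlap at its brightest probe set, at 0.18 (adjusted p = 0.151). Its other 5 bright probe sets gave smaller values, from 0.02 to 0.14, 3 of them with overlap, and their mean with the first was 0.09. Sik1, a salt-inducible kinase that curbs CREB, did not overlap either, at 0.18 (adjusted p = 0.461). Tiparp, a target of the aryl hydrocarbon receptor, overlapped at 0.05 (adjusted p = 0.818).

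Of 69 tested genes of the wider pathway outside the 44, 9 were higher and 4 lower, against 3.24% of all tested genes in each direction, and their median log2 change was 0.08. Whether they differ from the 44 was not tested. In the route from growth factors to ERK 1 of 13 rose and none fell: Hbegf, the EGF receptor ligand, went from 314 ± 16.3 to 471 ± 17.9 (SD, n = 3), a log2 change of 0.59 (adjusted p = 0.000697). The receptor, Ras, Raf and kinase genes of that list did not pass, and the list median was -0.02. Of 11 stress kinases, Map3k5, the redox-regulated ASK1, rose by 0.41 (adjusted p = 0.0119), and the median was 0.13. For factors that bind early promoters, such as Srf at -0.03 and Creb1 at 0.14, limma called 0 of 9, with 1 at an unadjusted p under 0.05.

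A further 36 early and feedback genes gave 7 higher and 4 lower, with a median of 0.11. Cebpd and Cebpb, acute-phase transcription factors, rose by 1.49 and 0.61 (adjusted p = 0.00021 and 0.00242). The kinases Plk2 and Pim3 rose by 0.80 and 0.57 (adjusted p = 0.00398 and 0.000963), and Tnfaip3, the NF-kappaB inhibitor A20, by 0.55 (adjusted p = 0.0111). In the other direction, Id3, an inhibitor of helix-loop-helix factors, went from 464 ± 17.2 to 235 ± 15.1 (SD, n = 3), and Socs2, a brake on growth hormone signalling, from 194 ± 13.8 to 102 ± 4.37. Their log2 changes were -0.98 (adjusted p = 3.82e-05) and -0.92 (adjusted p = 0.000518). The repressor Bcl6 also fell, by 0.73 (adjusted p = 0.00824). So feedback genes outside the 44 included called changes in both directions.

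**Figure D5:**
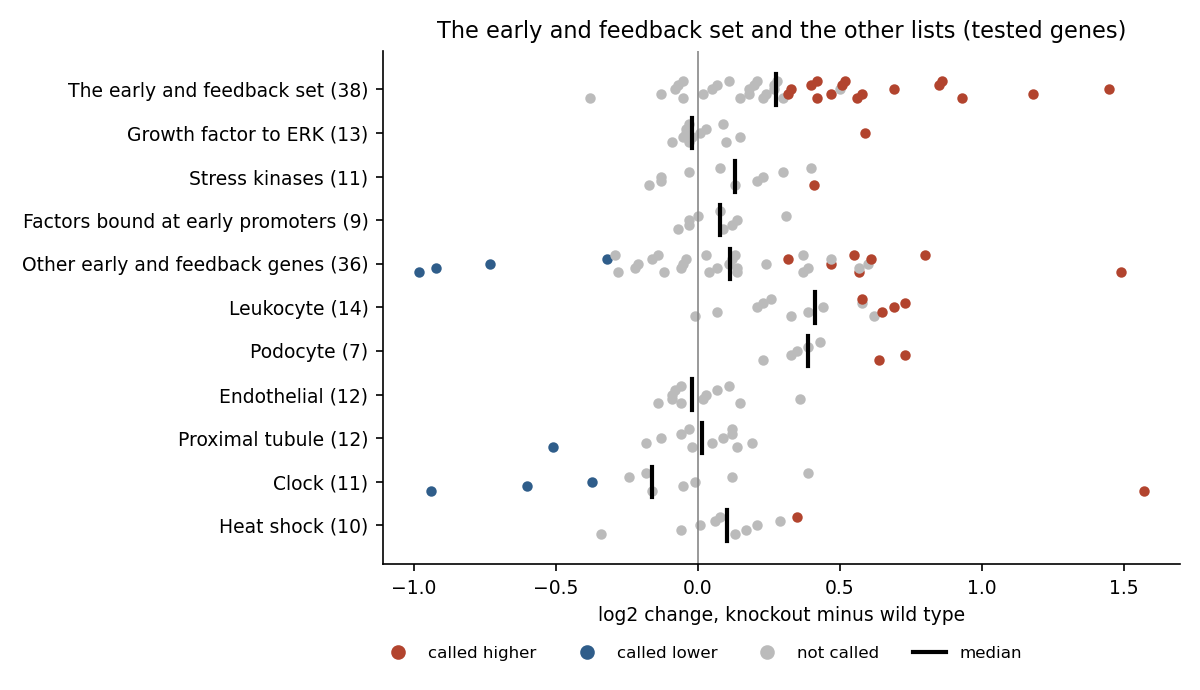
Log2 change (x axis, knockout minus wild type) of the tested genes of each list, red where called higher, blue where called lower and grey otherwise, with the list median as a bar. The median is 0.28 for the 38 early and feedback genes, -0.02 for the route from growth factors to ERK, 0.41 for leukocyte markers and -0.16 for clock genes.

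Markers of other cells moved with the groups. The 16 leukocyte markers summed to 4723 to 5022 on knockout arrays and 3294 to 3320 on wild-type arrays, a ratio of 1.48, and 4 of 14 tested were called higher, with a median of 0.41. H2-Aa and Cd74, of antigen-presenting cells, stood at 0.69 and 0.73, the largest changes of the list. With Csf1r, at 0.58, they were also the brightest of the list and weighed most in its sum. Not called were 10 of the 14, from Cd53 at 0.62 down to C1qb at 0.07 and Fcer1g at -0.01. Itgam lay below the testing limit on every array. Podocyte markers, with 2 of 7 called, summed to 1599 to 1875 against 1265 to 1310, a ratio of 1.33. The sums also did not overlap for the thick ascending limb (10055 to 10805 against 8133 to 8442, 2 of 6 called higher). Umod, the brightest marker of that list, rose from 3875 to 5155. Nor did the sums overlap for the distal convoluted tubule (9034 to 9673 against 7549 to 8609, 3 of 5 called higher). There Calb1, the brightest marker, rose from 3917 to 5300, while Slc12a3, the next brightest, stood at -0.12 and was not called. Sums of fibroblast and muscle cell markers did not overlap either (1197 to 1250 against 1085 to 1120, 0 of 6 called). Endothelial markers (0 of 12 called) summed to 3224 to 3557 against 3251 to 3369, and collecting duct markers (2 of 8 higher, 2 lower) to 3572 to 3815 against 3695 to 4022. On bulk tissue, more cells of a type and more RNA per cell cannot be told apart, and the part of these cells in the changes above was not tested.

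Some clock genes, which follow the hour of sampling, also differed between the groups. The activator Arntl rose by 1.57 (adjusted p = 8.06e-05), while its target Dbp fell by 0.94, Per2 by 0.60 and Hlf by 0.37. Of 11 tested clock genes, 1 was higher and 3 were lower, against 3.24% of all tested genes in each direction. The other 7 were not called, from Per3 at -0.24 to Cry2 at 0.39, with Nr1d1 at -0.05. The part of the clock in the changes of the early genes was not tested, and the hour of dissection is not given in the sources used here.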

How the data were processed

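Each of the 6 arrays was an Affymetrix Mouse Genome 430 2.0 array, a single-colour array of biotin-labelled RNA. The authors deposited 1 signal intensity per probe set on a linear scale, made with MAS5 in GCOS 1.4, per the submitters' processing notes. The trimmed mean, leaving out 2% at each end, was 150 on every array. With 3 arrays a group the precision is limited, and the median SE of a log2 change over all tested genes was 0.12.

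From these values log2 signals were taken with no constant added. Of 45101 probe sets, 64 were controls, the platform annotation gave a single symbol to 34945, more than 1 to 932 and no symbol to 9160. A gene was tested through its brightest single-symbol probe set if the mean log2 signal reached the median of non-control probe sets (signal 41.9). Knockout was compared with wild type with limma 3.58.1 (lmFit, eBayes with trend) in R 4.3.3 over 11620 genes, with Benjamini-Hochberg adjustment at 0.05. The same fit over every non-control probe set gave the values of further probe sets. The code was tested on simulated data. All 44 genes are accounted for. Those past the threshold have their 6 signals, and of the other lists at most 8 genes past the threshold are named. The genes, groups and lists were chosen with earlier results of these data known. Promoter sequences are from RefSeq (GRCm38.p6). Alternatives covered normalization, filter, pseudocount, probe set choice, the variance model, station and single arrays.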

Additional observations from a re-analysis of the deposited data

How the results depend on the processing

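In all 17 alternatives 0 of the tested early genes were called lower, and Jun, Jund, Atf3, Nr4a1, Zfp36, Dusp1, Gadd45g and Nfkbia kept their call. The number called higher, 16, ranged from 10 (without knockout array 2) to 14 when 1 array was left out. It was 11 with arrays centred on the median, where all genes gave 199 higher and 198 lower against 377 and 376, 11 without the intensity trend (236 and 251), 13 without the filter, 14 of 38 on station 1 alone (212 and 241), and 15 with the station as a block. Without wild-type array 2 all genes gave 248 higher and 264 lower, and without wild-type array 1, 262 and 250. The median change of 0.28 became 0.23 with 50 added to each signal, 0.30 with a mean signal of at least 100 and 0.30 on station 1 alone, and ran from 0.27 to 0.32 with 1 array left out. Replicate numbers did not pair the arrays: same-numbered deviations correlated at 0.021, 0.031 and -0.034, their own number was the best partner only for the arrays numbered 2, and the replicate block gave 15 called, ending the call of Junb (adjusted p = 0.0555 in limma). Signs of uncalled genes turned for Fosl2 (0.23 as the mean of its probe sets, -0.13 to 0.53 with 1 array left out, the values above 0 coming from its other probe set, which was the brighter without wild-type array 1 or 2), Tiparp (-0.02 as the mean, -0.04 on station 1 alone, -0.01 to 0.13) and Dusp10 (-0.04 on station 1 alone, -0.06 to 0.44). With 1 array left out they also turned for Zfp36l1 (-0.13 to 0.01), Zfp36l2 (-0.17 to 0.03) and Dusp2 (-0.11 to 0.14). Apart from Fosl2 and the means of probe sets, the cause of these changes was not tested. Dim signal left Fosl1, Egr2, Egr3, Myc, Maff and Dusp5 untested.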

Other observations

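Of 10 tested heat shock genes, which answer to protein damage, limma called 1 higher, Hspb1 with a log2 change of 0.35, and 0 lower, against 3.24% of all tested genes in each direction. At an unadjusted p under 0.05, 4 were higher and 1 was lower, against 1194 and 1055 of all 11620 tested genes. On 4 every knockout array lay above every wild-type array, against 13.6% of all tested genes. Their median was 0.10, and 8 of the 10 were above 0, against 51.7% of all tested genes. Among dim probe sets that were not tested in the fit over genes, a third-brightest probe set of Ier5 read 27.1, 26.3 and 27.2 on knockout arrays and 7.89, 11.6 and 10.9 on wild-type arrays. The dimmer probe set of Egr3 read 10.6, 16.1 and 21.9 against 4.05, 6.62 and 9.87. Myc read 28.8, 11.9 and 4.72 against 33.1, 35.2 and 22.7. These 3 were chosen after their values were seen.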
